A study of Homo sapiens with 25 samples.

Results

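The response of MDA-MB-453 to 24 h of the EGFR kinase inhibitor erlotinib was set against the response of the line labelled MCF, as the difference between the change within one line and the change within the other. It uses 12 of the 25 arrays of the series: MDA-MB-453 at 0 min and 24 h and MCF at 0 min and 24 h, with 3 arrays in each of the 4 groups. Of the 19775 genes represented, the 11879 whose log2 signal exceeded 4 on 3 or more of the 12 arrays were tested. MDA-MB-453 is a human breast cancer line with luminal features, and "MCF" is all that the labels say of the other line. Cells of both lines were plated in medium with serum and left to adhere before erlotinib was added to 10 µM, and both 0 min groups carry the same treatment label as the 24 h groups. Neither line has a group at 24 h without drug, so drug and time in culture cannot be told apart in either line. The arrays of MDA-MB-453 belong to Part 1 of the series and those of MCF to Part 2, so line and part cannot be told apart, and only changes within a part were compared. The labels do not say whether replicates were separate cultures; p-values measure the spread between these arrays, whose number limits the precision. In bulk RNA, fewer cells of a type and less RNA per cell cannot be told apart.

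Erlotinib blocks the kinase of EGFR, a receptor that drives the RAS, RAF, MEK and ERK cascade and the PI3K and AKT cascade. Loss of ERK activity lowers feedback genes such as the DUSP phosphatases, Sprouty proteins and ETV transcription factors, and loss of AKT activity lets FOXO factors enter the nucleus. Cells short of amino acids, or under stress on protein folding, make the transcription factor ATF4, which turns on amino acid transporters and synthesis enzymes. Planar aromatic compounds can bind the aryl hydrocarbon receptor (AhR), whose classical target is the cytochrome P450 gene CYP1A1.

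EGFR, the target of the drug, was near the bottom of the scale in both lines. Its probe set with the highest mean read 3.53 ± 0.20 (SD, n = 3) at 0 min and 3.57 ± 0.19 at 24 h in MDA-MB-453. In MCF it read 3.52 ± 0.56 at 0 min and 2.55 ± 0.63 at 24 h. Neither line reached the level needed for testing. Of the 8 markers listed for MCF, among them the estrogen receptor gene ESR1, 8 had a mean above 4 in MCF and 5 in MDA-MB-453. Of the 7 on the array for MDA-MB-453, 7 had one in MDA-MB-453 and 5 in MCF, so presence alone does not separate the lines for most of these genes. ESR1 read 12.39 to 12.69 on the MCF arrays and 2.08 to 2.91 on the MDA-MB-453 arrays. ERBB2, the relative of EGFR with no ligand of its own, read 10.69 to 11.43 in MDA-MB-453 and 5.83 to 7.10 in MCF. Of 4 blood cell markers on the array, 0 had a mean above 4 in either line. Of 6 fibroblast markers, 1 had a mean above 4 in MDA-MB-453 and 2 in MCF. Replicates of MCF differed more than those of MDA-MB-453: the median SD of a gene was 0.30 at 0 min and 0.31 at 24 h in MCF, against 0.14 and 0.16. The median standard error of a change was therefore 0.25 in MCF and 0.13 in MDA-MB-453. The MCF arrays also spread along a common axis, with 0 min replicate 1 and 24 h replicate 3 at one end and replicate 2 of both times at the other.

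In MDA-MB-453, 756 genes rose (6.36% of those tested) and 353 fell (2.97%) at an adjusted p under 0.05, with limma and Benjamini-Hochberg adjustment over all genes tested, 9.34% of them together. In MCF, in a limma fit of the same kind, 1 gene fell (0.00842%) and 0 rose, while 675 genes had an unadjusted p under 0.05. So few calls in MCF do not show that its genes were still, since the error of a change there was larger. The difference of the changes, tested in one limma fit to the 12 arrays, was called for 118 genes (0.993%). It was positive, with the change in MDA-MB-453 above that in MCF, for 100 of them (0.842%) and negative for 18 (0.152%). In 82 of the 118 the larger of the changes was the one in MDA-MB-453, and in 36 the one in MCF. The 118 include 40 genes with both MCF group means below 4 and 16 with both MDA-MB-453 means below 4, where the size of a change is inexact; 62 were measured in both lines. Left without single arrays, the count ran from 54 without MDA-MB-453 24 h replicate 1 to 128 without MCF 0 min replicate 2.

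No gene was called in both single-line fits, 0 in either direction. A change was therefore counted as shared when the mean of the changes was called, the arrays at 24 h and 0 min did not overlap in either line in the same direction, and the difference was not called. The mean was called upward for 283 genes (2.38%) and downward for 166 (1.4%). By this rule 152 genes rose in both lines together (1.28%) and 78 fell (0.657%), or 1.94% in all. Of MCF by itself the rule asks only that the arrays do not overlap. That held upward for 5.47% of all genes tested and downward for 6.15%. No shared gene had a called change in MCF alone, and a difference that is not called does not show equal changes. The rule therefore does not establish a response in MCF for each gene. A change was counted as belonging to MDA-MB-453 when it was called there, not called in MCF and called as different from MCF. This held for 69 genes that rose (0.581%) and 15 that fell (0.126%). Of the 69, 29 had both MCF means below 4, and of the 15, 8 did, so the size of their MCF change is inexact. The MCF arrays also did not overlap in the same direction for 5 of the 69 and 2 of the 15. By the same rule 1 gene, ETV5, belonged to MCF. Another 25 genes moved up in MDA-MB-453 and down in MCF (0.21%), and 4 the other way (0.0337%). For each, the arrays of the times did not overlap in either line and the difference was called. Some of them are also counted as belonging to MDA-MB-453. Arrays that do not overlap were thus required of every gene counted as shared or opposite, and add no support where they are stated below. Of the 25, 16 were measured in both lines, and of the 4, 2 were. For the others, 1 of the opposite movements was read from signal below 4.

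**Figure D1:**
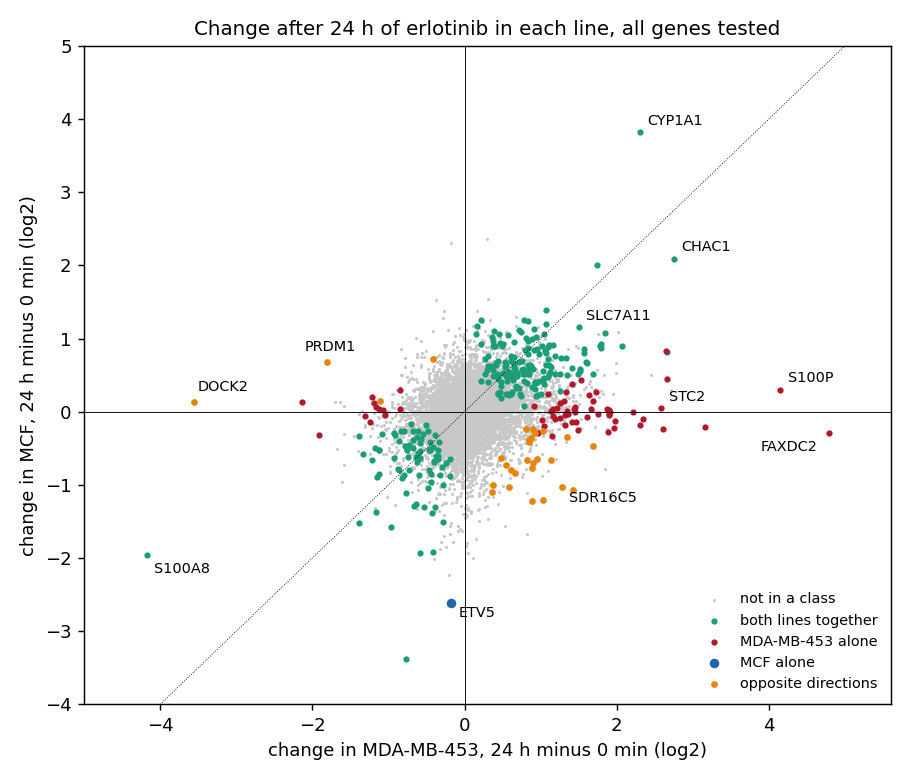
Change after 24 h of erlotinib in MDA-MB-453 (horizontal, log2) and in MCF (vertical, log2) for the 11879 genes tested, with each point a gene coloured by its class and the dotted line marking equal changes. The 230 shared genes lie in the upper right and lower left, with CYP1A1 (2.30 and 3.82) and S100A8 (-4.18 and -1.96) at the ends, while S100P and FAXDC2 lie far to the right near a change of 0 in MCF.

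The genes that moved in MDA-MB-453 tended to lie on the same side of 0 in MCF. Of the 756 that rose, 70.4% had an MCF change above 0, against 48.5% of all genes tested, and their median MCF change was 0.16. Arrays of MCF did not overlap, 24 h above 0 min, for 126 of the 756 (16.7%), against 5.47% of all genes tested. Of the 353 that fell, 78.8% had an MCF change below 0, against 51.5% of all, with a median of -0.23. The arrays of MCF did not overlap in that direction for 54 of them (15.3%), against 6.15%. Across all genes tested, which are not independent replicates, the changes in the lines correlated with a Pearson coefficient of 0.26 and a Spearman coefficient of 0.26.

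The largest shared rise was that of CYP1A1, which oxidises planar aromatic compounds. In MDA-MB-453 its arrays read 4.66, 4.14 and 4.37 at 0 min and 6.50, 6.61 and 6.96 at 24 h. In MCF they read 4.98, 4.12 and 4.63 at 0 min and 8.58, 7.90 and 8.71 at 24 h. Every 24 h array of either line lay above every 0 min array. The change was 2.30 ± 0.18 (SE) in MDA-MB-453, a rise of 4.93-fold, and 3.82 ± 0.32 in MCF, or 14.1-fold. The mean of the changes was called (3.06 ± 0.19, limma adjusted p = 4.86e-05) and the difference was not (-1.52 ± 0.39, limma adjusted p = 0.126). The 95% interval of that difference, -2.37 to -0.66 before adjustment, does not hold 0, so the lines cannot be said to rise alike in size. Of the 7 tested genes on a list of AhR targets and partners, 2 rose in both lines together, CYP1A1 and CYP1A2, where 1.28% of all genes did. CYP1A2, a close relative, changed by 0.69 and 0.49, with both MCF group means near 4, and was called in 7 of 25 alternatives, among them 2 of the 12 that left out a single array (MDA-MB-453 24 h replicate 2 and MCF 24 h replicate 3). CYP1B1, another P450 of the family, changed by 0.05 and 0.20, TIPARP by 0.28 and 0.65 and the receptor gene AHR by 0.06 and 0.07, none of them called.

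DHRS3, a retinaldehyde reductase, also rose in both lines. Its arrays read 3.31, 2.59 and 2.93 at 0 min and 4.68, 4.42 and 4.95 at 24 h in MDA-MB-453. In MCF they read 4.78, 4.85 and 5.61 at 0 min and 7.35, 6.96 and 6.95 at 24 h. The groups did not overlap in either line, and the changes were 1.74 ± 0.22 and 2.01 ± 0.28. The 0 min arrays of MDA-MB-453 lay below 4, so the size of the rise there is inexact. The mean of the changes was 1.87 ± 0.18 (limma adjusted p = 0.00101), and the 95% interval of the difference was -1.09 to 0.55.

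Of the 10 shared rises named by size, 4 were on the amino acid stress list: CHAC1, SLC7A11, ASNS and NUPR1. CHAC1, an enzyme that degrades glutathione and is a classical target of the ATF4 branch, read 5.14, 5.04 and 4.96 at 0 min and 7.75, 7.78 and 7.86 at 24 h in MDA-MB-453. In MCF it read 4.65, 3.22 and 3.28 at 0 min and 5.36, 5.26 and 6.80 at 24 h. The high 0 min array of MCF was replicate 1 and the high 24 h array replicate 3, the same end of the axis named above. That the groups did not overlap was required for the gene to be counted as shared. The changes of CHAC1 were 2.75 ± 0.09 and 2.09 ± 0.57 (mean 2.42 ± 0.31, limma adjusted p = 0.00221), with a 95% interval of the difference from -0.70 to 2.02. Its MCF mean at 0 min was 3.71, below 4, so the size of the rise there is inexact.

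SLC7A11, the cystine transporter subunit xCT, read 10.15, 10.00 and 9.79 before and 11.48, 11.63 and 11.35 after 24 h in MDA-MB-453. The MCF arrays read 9.54, 9.40 and 9.37 before and 10.58, 10.79 and 10.42 after. Its 3 probe sets gave changes of 1.19 to 1.50 in MDA-MB-453 and 0.84 to 1.24 in MCF. The mean of the changes was 1.33 ± 0.10 (limma adjusted p = 0.000283) and the 95% interval of the difference -0.11 to 0.80. ASNS, which makes asparagine, changed by 1.85 ± 0.12 and 1.08 ± 0.31. The 0 min arrays of ASNS read 9.66, 9.70 and 9.40 in MDA-MB-453 and 11.21, 10.23 and 10.53 in MCF, and the 24 h arrays read 11.46, 11.31 and 11.54, and 11.75, 11.39 and 12.07. The margin in MCF was narrow, since its lowest 24 h array lay 11.39 against a highest 0 min array of 11.21. NUPR1, a stress-induced chromatin protein, changed by 0.94 ± 0.15 and 1.02 ± 0.16, from a high level in MDA-MB-453 (mean 11.22 at 0 min) and from below 4 in MCF (mean 3.72).

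**Figure D2:**
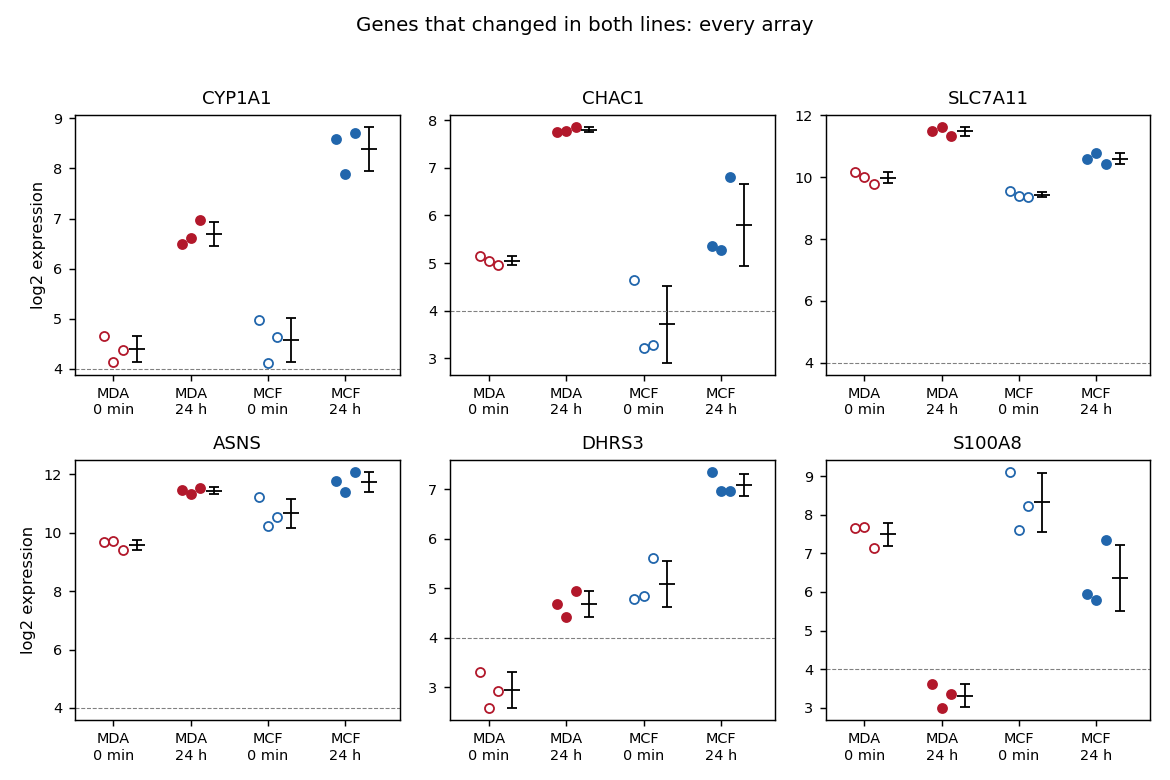
Log2 expression on every array (open points 0 min, filled points 24 h, MDA-MB-453 red, MCF blue) for 6 genes that changed in both lines, with the mean and SD (n = 3) in black beside each group and a dashed line at 4, the level used for testing. Every 24 h array lies on the same side of every 0 min array of its line, as the rule for shared genes required. The MCF points of CHAC1, ASNS and S100A8 are the most widely spread.

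ATF4 and its partners bind an amino acid response element whose core is TGATGNAA, where N is any base. RefSeq promoters (GRCh38.p14, 250 bases before to 50 after each start) were found for 132 of the 152 genes that rose in both lines, and the core, on either strand, was in those of 5: ASNS, CHAC1, GPX8, HERPUD1 and SLC3A2. That is 3.79% of the matched genes, against 2.84% of the 9784 matched genes tested, and these shares lie near each other. Of the 18 matched genes of the amino acid stress list, 5 held it (27.8%), against 2.84% of the matched genes tested and 4.46% of the 27305 genes with a listed promoter. That list was drawn up around ATF4, so its share is not a result of these data. Counted by promoter, the core was in 16.7% of the list's 30, 2.07% of the 14281 of the genes tested and 3.62% of all 35116. The following stretches show where the letters lie, in capitals, in the promoters of 3 genes that rose in both lines: CHAC1, ASNS and HERPUD1, a protein of endoplasmic reticulum degradation whose changes were 0.60 ± 0.09 and 0.70 ± 0.15. A match is a description, not a site.
CHAC1, chr15:40953222-40953309, plus strand, core on the opposite strand: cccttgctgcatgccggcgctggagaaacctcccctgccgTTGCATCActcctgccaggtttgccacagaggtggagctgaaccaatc
ASNS, chr7:97872429-97872516, minus strand, core on the gene's strand: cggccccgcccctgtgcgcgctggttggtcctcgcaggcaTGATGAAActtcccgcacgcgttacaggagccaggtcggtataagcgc
HERPUD1, chr16:56931926-56932013, plus strand, core on the opposite strand: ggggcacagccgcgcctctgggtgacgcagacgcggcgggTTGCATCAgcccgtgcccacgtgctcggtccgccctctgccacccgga
The core begins 209 bases before the start of CHAC1, 176 before that of HERPUD1 and 68 before 1 of the 2 starts of ASNS.
CYP1A1 holds the core of the element that AhR binds, GCGTG, on its own strand 57 bases before the start, in capitals here.
CYP1A1, chr15:74725541-74725625, minus strand: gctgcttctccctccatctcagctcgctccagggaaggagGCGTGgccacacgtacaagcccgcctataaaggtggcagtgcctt
This short core was on either strand in the promoters of 56.1% of the matched genes that rose in both lines and of 58.8% of the matched genes tested.

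Over the whole amino acid stress list, 23 of 25 genes were tested. In MDA-MB-453, 15 rose and 0 fell, where 6.36% of all genes rose; 8 rose without 0 min replicate 2 or 24 h replicate 1. In MCF, 0 were called, and the arrays did not overlap upward for 12 of the 23, against 5.47% of all genes. All 23 changes in MCF lay above 0, and 21 of 23 in MDA-MB-453. The median change was 0.65 in MDA-MB-453 and 0.51 in MCF, against medians of 0.02 and -0.01 over all genes tested. The mean of the changes was called, upward, for 10 of the 23, against 2.38% of all genes tested. Of the 23, 9 rose in both lines together, against 1.28% of all genes: DDIT3, ASNS, CHAC1, DDIT4, SLC7A11, SLC7A5, SLC3A2, VLDLR and NUPR1. DDIT3, the stress factor CHOP, changed by 1.10 ± 0.16 and 0.88 ± 0.31, and DDIT4, an inhibitor of mTORC1, by 0.61 ± 0.08 and 0.76 ± 0.25. Other members rose in MDA-MB-453 and were too variable in MCF to read: PHGDH, the first enzyme of serine synthesis, changed by 1.75 ± 0.20 in MDA-MB-453 and by 1.06 ± 1.07 in MCF, where its arrays ran from 5.24 to 8.43 at 0 min. ATF3, a stress-induced transcription factor, changed by 1.33 ± 0.12 and 0.25 ± 0.22, a difference of 1.08 that was not called (limma adjusted p = 0.0982). STC2 alone of the 23 had a called difference, and it is described with the genes of MDA-MB-453.

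Of 21 FOXO-linked genes tested, 9 rose in MDA-MB-453, where 6.36% of all genes rose, and 0 fell. In MCF 0 were called, and 4 rose in both lines together, where 1.28% of all genes did: KLHL24, YPEL2, YPEL5 and CCNG2. The 9 became 4 without MDA-MB-453 0 min replicate 2 or 3 and 2 without 24 h replicate 1. The 4 became 2 without MDA-MB-453 0 min replicate 3, MDA-MB-453 24 h replicate 1 or MCF 24 h replicate 1, and 7 without MCF 24 h replicate 3. KLHL24, a substrate adaptor of a ubiquitin ligase, changed by 1.61 ± 0.15 and 0.66 ± 0.25, and YPEL2 by 0.98 ± 0.15 and 0.42 ± 0.16. The list had a median change of 0.54 in MDA-MB-453 and 0.24 in MCF. None (0) of its members had a called difference. TSC22D3, the leucine zipper protein GILZ, changed by 0.68 ± 0.14 and 1.29 ± 0.46, and the proapoptotic BCL2L11 by 0.52 ± 0.11 and 0.04 ± 0.17; both rose in MDA-MB-453 (limma adjusted p = 0.0355 and 0.0304), and neither difference was called.

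Metallothioneins, small proteins that bind zinc and copper, all had changes above 0: 7 of 7 tested in each line, with medians of 0.69 and 0.48. MT1F rose in both lines together, by 1.08 ± 0.18 in MDA-MB-453 and 1.38 ± 0.28 in MCF (mean 1.23 ± 0.18, limma adjusted p = 0.00394). Metallothionein genes are near-identical in sequence, so a probe set can also read a relative.

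Among shared falls the largest was S100A8, a calcium-binding protein of inflamed epithelium and myeloid cells. It read 7.65, 7.68 and 7.15 at 0 min and 3.61, 2.99 and 3.34 at 24 h in MDA-MB-453. In MCF it read 9.11, 7.61 and 8.24 at 0 min and 5.94, 5.79 and 7.35 at 24 h. The groups did not overlap in either line, though the highest 24 h array of MCF, replicate 3, came close to its lowest 0 min array. The changes were -4.18 ± 0.21, or 18.1-fold lower, and -1.96 ± 0.55, or 3.89-fold lower (mean -3.07 ± 0.32, limma adjusted p = 0.00109). The 24 h arrays of MDA-MB-453 lay below 4, so the size of the fall there is inexact. Their difference was not called (-2.22 ± 0.63, limma adjusted p = 0.197). The 95% interval of that difference, -3.62 to -0.82 before adjustment, does not hold 0. The lines therefore cannot be said to fall alike in size. A further probe set of S100A8 gave -4.52 and -1.85. Its partner S100A9 changed by -1.17 ± 0.13 and -1.38 ± 0.32, with both MDA-MB-453 means below 4, and the related S100A2 by -0.97 ± 0.14 and -1.58 ± 0.42. All group means of the 4 blood cell markers on the array were below 4 in both lines; on single arrays LYZ, lysozyme, reached 4.54 in MDA-MB-453 at 24 h (replicate 1), with means of 3.58 at 0 min and 3.94 at 24 h there and 2.75 and 3.51 in MCF. Their part in the result was not tested.

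KCTD12, an auxiliary subunit of GABA-B receptors, fell in both lines. It read 6.16, 5.34 and 5.21 at 0 min and 4.16, 4.33 and 4.03 at 24 h in MDA-MB-453, and 6.88, 6.66 and 6.80, then 5.47, 4.92 and 5.38, in MCF. The changes were -1.39 ± 0.25 and -1.52 ± 0.20 (mean -1.46 ± 0.17, limma adjusted p = 0.00182; 95% interval of the difference -0.63 to 0.88). TCOF1, the treacle protein of ribosomal RNA transcription, fell with changes of -0.80 ± 0.15 and -0.87 ± 0.17. L3HYPDH, a hydroxyproline dehydratase, changed by -1.15 ± 0.14 and -0.90 ± 0.26 and fell in both lines together (limma adjusted p of the mean = 0.00484). SPRR1B, a cornified envelope protein outside the rule for naming and picked after its values were seen, had the lowest change in MCF of all genes tested (-3.39 ± 0.52) beside -0.77 ± 0.19 in MDA-MB-453, where it stayed below 4.

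Of 20 ribosome biogenesis genes tested, 7 fell in MDA-MB-453 and 0 rose, where 2.97% of all genes fell; 0 were called in MCF. The 7 became 2 without any 1 MDA-MB-453 0 min array and 1 without 24 h replicate 1. Changes lay below 0 for 19 of the 20 in MDA-MB-453 and 15 of 20 in MCF, with medians of -0.42 and -0.12. MRTO4, a ribosome assembly factor, fell in both lines together, by -1.22 ± 0.11 and -0.66 ± 0.28 (limma adjusted p of the mean = 0.00888), and so did UTP20 and NOLC1. Of these 3 shared falls, where 0.657% of all genes fell together, the list kept a count of 1 without any 1 MDA-MB-453 0 min array, MDA-MB-453 24 h replicate 1 or 3 or MCF 0 min replicate 2 or 3; the mean of MRTO4 was called in each of 25 alternatives. No member had a called difference.

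Genes of the G1/S transition and DNA replication had changes below 0 in MCF for 31 of 31 tested, and in MDA-MB-453 for 28 of 31. The MCF arrays did not overlap downward for 16 of the 31, against 6.15% of all genes tested, and those of MDA-MB-453 for 7, against 12.9%. Median changes were -0.43 in MCF and -0.08 in MDA-MB-453. No member was called in either line alone and none had a called difference; the difference with the smallest p, that of MCM10, was 0.71 ± 0.20 (limma adjusted p = 0.202). MCM10, a replication initiation factor, read 10.10, 9.79 and 9.77 at 0 min and 9.06, 8.77 and 8.84 at 24 h in MCF. In MDA-MB-453 it read 10.20, 9.96 and 9.93, then 9.77, 9.62 and 9.84. It fell in both lines together (mean -0.64 ± 0.10, limma adjusted p = 0.00708), as did ORC1, a subunit of the origin recognition complex (mean -0.73 ± 0.17, limma adjusted p = 0.0429). These were the 2 shared falls of the 31, where 0.657% of all genes tested fell together. The list's count of shared falls was 1 in place of 2 without any 1 MDA-MB-453 0 min array, MDA-MB-453 24 h replicate 1, MCF 0 min replicate 2 or 3 or any 1 MCF 24 h array, and with no filter, a filter at 6, array weights, a trended and robust fit or the replicate block; the mean of MCM10 was called in each of 25 alternatives. Genes of G2/M and mitosis, 30 tested, had medians of -0.05 in MDA-MB-453 and 0.04 in MCF. Of these, 1 fell in MDA-MB-453 by the limma call, near the 2.97% of all genes tested.

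**Figure D3:**
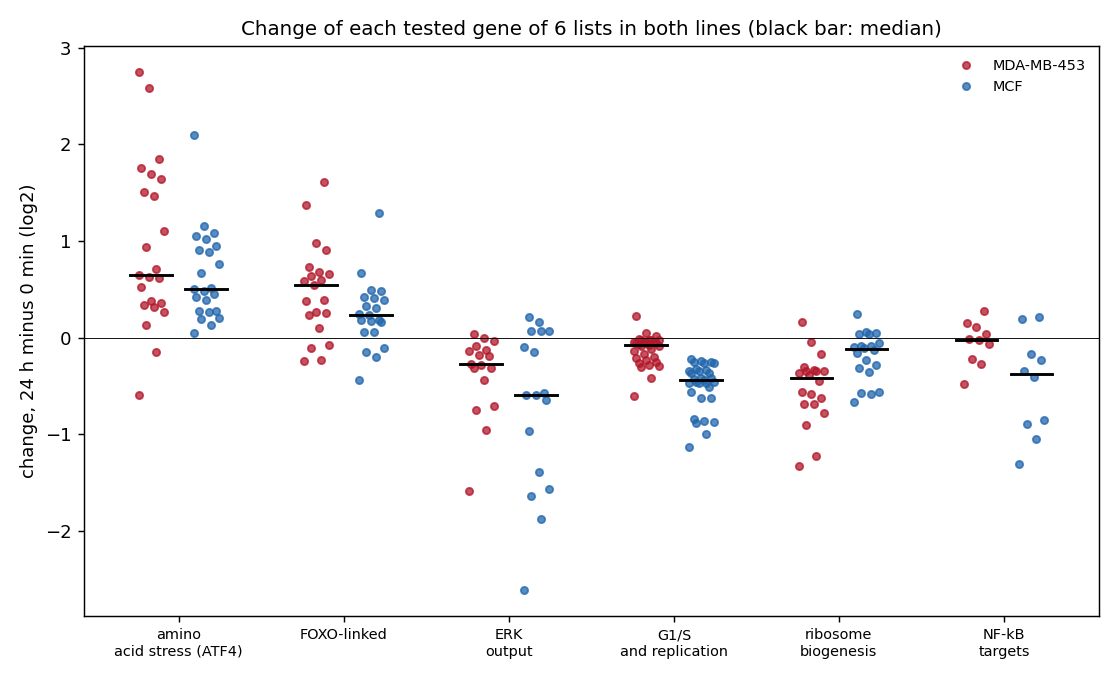
Change after 24 h (vertical, log2) of every tested gene of 6 lists in MDA-MB-453 (red) and MCF (blue), with the median of each list as a black bar. Of the 23 amino acid stress genes, 21 lie above 0 in MDA-MB-453 (median 0.65) and 23 in MCF (median 0.51). The lowest MCF points of the ERK output list, ETV5 at -2.61 among them, have no match among its MDA-MB-453 points apart from MYC at -1.59.

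The ERK output list had 5 called differences between the lines, against at most 2 on any other list. With a level above 4 required in each line it had 1, among 15 genes tested, and with the replicate block it also had 1. ETV5, a transcription factor of the ETS family and an ERK target, read 9.88, 10.13 and 9.95 at 0 min and 7.32, 7.29 and 7.53 at 24 h in MCF. In MDA-MB-453 it read 10.79, 10.78 and 10.95 at 0 min and 10.61, 10.62 and 10.76 at 24 h. The MCF groups lay far apart and those of MDA-MB-453 barely separated. ETV5 fell in MCF by 2.61 ± 0.16 on the log2 scale, or 6.10-fold (limma adjusted p = 0.0349), the 1 gene called there. In MDA-MB-453 the change was -0.17 ± 0.10, and the difference was 2.43 ± 0.17 (limma adjusted p = 0.000185; 95% interval 2.05 to 2.82). The difference kept its call under each of 25 alternatives, but the MCF fall alone lost its call without any 1 of the 6 MCF arrays, with changes between -2.69 and -2.54 and limma adjusted p up to 0.701. A further probe set of ETV5 with a mean of 7.72 gave changes of -0.43 in MDA-MB-453 and -2.56 in MCF. A dim one that passed the filter, with a mean of 3.65, gave -0.18 and -0.42, a difference of only 0.24. Probe sets too dim to test gave -0.68 and -0.64, and -0.46 and -0.92.

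SPRY4, a Sprouty inhibitor of the pathway, read 9.22, 9.13 and 9.15 at 0 min and 9.10, 9.29 and 8.85 at 24 h in MDA-MB-453. In MCF it lay below the measured range at both times, at 3.58, 3.65 and 3.93 and then 2.02, 2.09 and 2.14, so that the size of its change there is inexact. The difference was 1.55 ± 0.20 (limma adjusted p = 0.0058), and it kept its call without any 1 of the 12 arrays. DUSP6, the cytoplasmic phosphatase of ERK, changed little in MDA-MB-453, from 12.42, 12.42 and 12.44 to 12.29, 12.14 and 12.30. In MCF it went from 7.75, 8.14 and 7.53 to 6.32, 6.53 and 5.90, with no overlap. The difference was 1.38 ± 0.27 (limma adjusted p = 0.0443), a call made in 11 of 25 alternatives, whose adjusted p ran from 0.00355 to 0.246. One of its 3 tested probe sets gave -0.76 and -1.02, a difference of only 0.26.

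The remaining called differences of the list were LIF, a cytokine of the interleukin 6 family (1.56 ± 0.26, limma adjusted p = 0.0206), and SPRED1, a RAS inhibitor (1.39 ± 0.28, limma adjusted p = 0.0477); SPRED1 falls outside the rule for naming and was picked after its values were seen. LIF was measured only in MCF, where it went from 6.16, 5.58 and 5.92 to 4.07, 3.72 and 4.23. SPRED1 went from 8.24, 8.72 and 8.61 to 7.20, 7.45 and 6.74 in MCF and changed by 0.00 in MDA-MB-453, while its dimmest probe set gave -0.41 and -0.33. The LIF call held without MDA-MB-453 24 h replicate 1 or MCF 0 min replicate 1 or 2 or 24 h replicate 2 or 3, and was lost without any 1 of the other 7 arrays. The SPRED1 call held only without MCF 0 min replicate 1 or 24 h replicate 2 or 3, and the DUSP6 call only without MCF 0 min replicate 3 or 24 h replicate 2 or 3. Over the 17 genes of the list tested, 5 had a called difference, all positive, against 0.842% of all genes. Over the alternatives 1 to 5 were positive, and a single negative one was called without MCF 24 h replicate 1 and with a covariate for the axis of the arrays. The positive count was 2 without any 1 MDA-MB-453 0 min array, MDA-MB-453 24 h replicate 2 or 3 or MCF 24 h replicate 1, and 3 without MDA-MB-453 24 h replicate 1 or MCF 0 min replicate 2 or 3.

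The same list did not stand still in MDA-MB-453. Changes lay below 0 for 16 of its 17 tested genes there and for 12 of 17 in MCF, with medians of -0.27 and -0.59. The genes that fell in MDA-MB-453 by the limma call were MYC, EGR1 and DUSP5, 3 of the 17, where 2.97% of all genes tested fell. MYC, the growth-promoting transcription factor, read 10.42, 10.76 and 10.53 at 0 min and 9.03, 9.38 and 8.55 at 24 h there, a fall of 3.00-fold (-1.59 ± 0.22, limma adjusted p = 0.0101). On the MCF arrays it ran from 8.84 to 10.93 at 0 min and from 8.81 to 10.54 at 24 h, and its change of 0.07 ± 0.67 cannot be read either way. The difference of -1.66 ± 0.76 was not called (limma adjusted p = 0.573). EGR1, an immediate early transcription factor, changed by -0.95 ± 0.12 in MDA-MB-453 (limma adjusted p = 0.00781) and by 0.07 ± 0.37 in MCF, again with no called difference. DUSP5, the nuclear phosphatase of ERK, changed by -0.71 ± 0.10 and -0.96 ± 0.48. CCND1, cyclin D1, changed by -0.29 ± 0.13 and -0.10 ± 0.21, and neither change nor their difference was called.

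**Figure D4:**
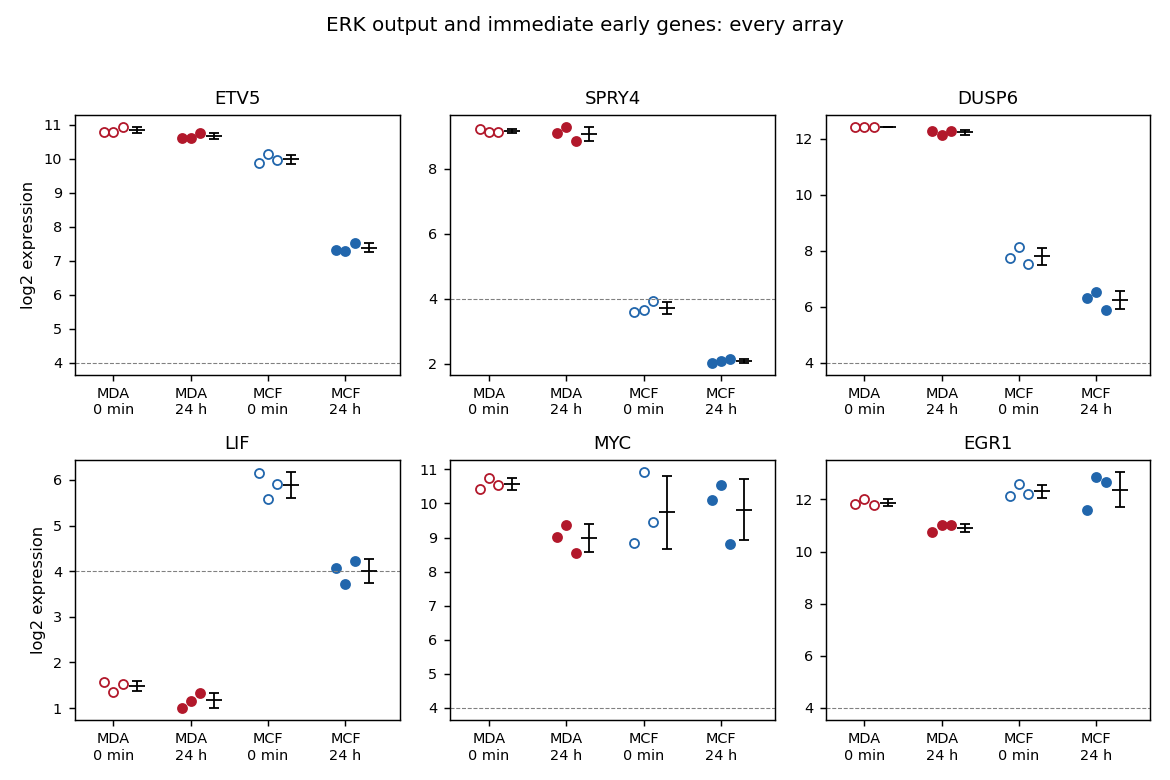
Log2 expression on every array (open points 0 min, filled points 24 h, MDA-MB-453 red, MCF blue) for 4 ERK output genes with a called difference and for MYC and EGR1, with the mean and SD (n = 3) in black and a dashed line at 4. The 24 h arrays of ETV5, DUSP6 and LIF lie below the 0 min arrays in MCF, those of SPRY4 do so under the dashed line, and MYC is lower at 24 h in MDA-MB-453 while its MCF arrays spread over more than 2 log2 units at 0 min.

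A called positive difference with no call in MDA-MB-453 and the larger change in MCF was found for 29 genes, among them ETV5, SPRY4, DUSP6, LIF and SPRED1. In all 29 the MCF arrays at 24 h lay below those at 0 min, with a median change of -1.34; how they were picked fixes part of that direction. SPRR3, a cornified envelope protein, read 4.87, 5.34 and 5.43 at 0 min and 3.03, 2.87 and 3.04 at 24 h in MCF. It stayed below 4 in MDA-MB-453, and the difference was 2.03 ± 0.25 (limma adjusted p = 0.00457). RTKN2 was measured in both lines: its MCF arrays read 5.78, 5.80 and 5.88, then 4.29, 4.32 and 4.36, and its change in MDA-MB-453 was 0.19 ± 0.14. The difference was 1.69 ± 0.19 (limma adjusted p = 0.00419). ODAPH, an enamel protein, went from a mean of 4.25 to 2.32 in MCF. Picked after their values were seen, DIO2, which activates thyroid hormone, and NT5E, the surface nucleotidase CD73, changed by -2.00 ± 0.19 and -2.01 ± 0.21 in MCF and lay below 4 in MDA-MB-453. The reverse held for 3 genes with the larger change in MCF and a negative difference: NUDT7, and INHBE and CPS1, which were picked after their values were seen. INHBE, the activin subunit beta E, read 3.05, 2.72 and 3.39, then 5.13, 5.21 and 5.90, in MCF, and stayed below 4 in MDA-MB-453. CPS1, the first enzyme of the urea cycle, changed by 1.54 ± 0.18 in MCF and 0.30 ± 0.11 in MDA-MB-453 (difference -1.23 ± 0.20, limma adjusted p = 0.0206).

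S100P, a calcium-binding protein secreted by many carcinomas, had the smallest p of all differences. It read 6.25, 6.45 and 6.38 at 0 min and 10.43, 10.61 and 10.51 at 24 h in MDA-MB-453, a rise of 17.8-fold. In MCF it was high throughout, at 12.15, 12.15 and 12.20 and then 12.52, 12.30 and 12.60. Every MCF array at 24 h lay above those at 0 min, so S100P is among the 5 of the 69 rises whose MCF arrays moved the same way. The change was 4.15 ± 0.10 in MDA-MB-453 (limma adjusted p = 3.29e-05) and 0.30 ± 0.16 in MCF. Their difference was 3.85 ± 0.17 (limma adjusted p = 3.91e-06; 95% interval 3.48 to 4.23), between 3.76 and 3.91 over 25 alternatives and called in each.

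FAXDC2, a member of the fatty acid hydroxylase family, had the largest difference. It read 3.86, 3.40 and 3.81 at 0 min and 8.71, 8.05 and 8.68 at 24 h in MDA-MB-453, against 7.56, 6.77 and 7.26, then 6.74, 6.72 and 7.25, in MCF. The change was 4.79 ± 0.22 in one line and -0.29 ± 0.27 in the other (difference 5.08 ± 0.37, limma adjusted p = 0.000185). Its 0 min level in MDA-MB-453 lay below 4, so the size is inexact; its next brightest probe set gave changes of 3.15 and -0.46. PAQR5, a membrane progesterone receptor, changed by 3.15 ± 0.33 and -0.21 ± 0.25, and PLA2G2A, a secreted phospholipase, by 2.21 ± 0.22 and -0.01 ± 0.15; both lay below 4 in MCF. CREB3L1, a membrane-bound transcription factor, changed by 2.66 ± 0.26 and 0.45 ± 0.32, with MCF means of 3.07 and 3.52, below 4. Its difference was called in 9 of 24 alternatives, holding only without MDA-MB-453 0 min replicate 1, MCF 0 min replicate 2 or MCF 24 h replicate 3 among the single omissions.

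STC2, a secreted glycoprotein and ATF4 target, rose in MDA-MB-453 from 7.61, 7.10 and 6.47 to 9.79, 9.32 and 9.84 (2.59 ± 0.30, limma adjusted p = 0.00606). In MCF it was already high, at 12.78, 11.96 and 12.32, and then read 12.28, 12.25 and 12.67, a change of 0.05 ± 0.26. The difference of 2.54 ± 0.42 (limma adjusted p = 0.0206) lost its call without MDA-MB-453 0 min replicate 2, 24 h replicate 1 or 24 h replicate 3, or MCF 0 min replicate 3, 24 h replicate 1 or 24 h replicate 2, with values of 2.25 to 2.82 over the single omissions. A dimmer probe set gave 0.87 and 0.48.

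Of 15 genes tested that respond to androgen or mark apocrine cells, 3 rose and 1 fell in MDA-MB-453, where 6.36% of all genes rose and 2.97% fell. PIP, the prolactin-induced protein, went from 10.75, 10.76 and 10.82 to 11.68, 11.57 and 11.77 there and lay below 4 in MCF (difference 1.13 ± 0.17, limma adjusted p = 0.0114). NDRG1, a stress-responsive gene, changed by 1.10 ± 0.09 and 0.24 ± 0.16 (difference 0.86 ± 0.17, limma adjusted p = 0.0481), a difference called in 8 of 25 alternatives and, of the single omissions, only without MCF 0 min replicate 3. Of 26 estrogen response genes tested, 2 rose and 2 fell in MDA-MB-453, near those shares of all genes, and 1, STC2, had a called difference. In MCF, where the receptor is expressed, TFF1 changed by -0.11 ± 0.34, GREB1 by 0.36 ± 0.22 and PGR by 0.89 ± 0.31, none of them called. Among p53 targets, DDB2, a DNA damage recognition protein, changed by 1.20 ± 0.16 and -0.10 ± 0.18; its difference of 1.30 ± 0.24 (limma adjusted p = 0.0344) was called in 8 of 25 alternatives and, of the single omissions, only without MCF 24 h replicate 3. CDKN1A changed by 0.04 ± 0.13 and -0.22 ± 0.21.

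DOCK2, a RAC activator best known from blood cells, had the largest fall that belonged to MDA-MB-453. It read 6.58, 6.99 and 7.30 at 0 min and 3.50, 3.59 and 3.11 at 24 h, or 11.8-fold lower (-3.56 ± 0.21, limma adjusted p = 0.00163). These 24 h arrays lay below 4, so the size of the fall is inexact. In MCF all 6 arrays lay between 2.29 and 2.65, all below 4, and the difference was -3.69 ± 0.27. BBOX1, a carnitine synthesis enzyme, and TDO2, which degrades tryptophan, changed by -2.13 ± 0.21 and -1.19 ± 0.12 in MDA-MB-453 and also lay below 4 in MCF. PRDM1, the transcription factor BLIMP1, went in opposite directions: from 6.58, 6.35 and 6.60 to 4.45, 4.72 and 4.94 in MDA-MB-453, and from 3.78, 3.90 and 3.99 to 4.40, 4.62 and 4.68 in MCF. The groups did not overlap in either line (difference -2.49 ± 0.21, limma adjusted p = 0.000554), and the change of 0.68 ± 0.16 in MCF was not called by itself. RAB31, a small GTPase, was at 12.50 to 12.64 at 0 min in MCF, where it changed by -0.05 ± 0.14, and near 4 in MDA-MB-453, where it changed by -1.31 ± 0.11.

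The opposite genes that went up in MDA-MB-453 were led by BTC and SDR16C5. BTC, betacellulin, a ligand of EGFR and ERBB4, read 3.02, 2.28 and 2.73 at 0 min and 4.40, 3.88 and 4.02 at 24 h in MDA-MB-453. In MCF it read 5.98, 6.18 and 6.25 and then 5.18, 5.45 and 4.57. The groups did not overlap in either line, and the difference was 2.50 ± 0.36 (limma adjusted p = 0.0101). The 0 min arrays of MDA-MB-453 lay below 4, so its size is inexact. The other tested probe set of BTC gave 0.43 and -0.78. SDR16C5, a retinol dehydrogenase, was measured in both lines throughout. It went from 4.67, 4.83 and 4.98 to 5.95, 6.08 and 6.27 in MDA-MB-453, and from 7.83, 7.57 and 7.77 to 6.68, 6.64 and 6.75 in MCF. Its changes were 1.28 ± 0.13 and -1.03 ± 0.15 and the difference 2.31 ± 0.19 (limma adjusted p = 0.000417), called under each of 25 alternatives. LETM2, COL5A2 and GABBR2 followed with differences of 2.24, 2.16 and 2.106. The change in MDA-MB-453 was called for COL5A2 (limma adjusted p = 0.0126) but not for LETM2 (limma adjusted p = 0.0502) or GABBR2 (limma adjusted p = 0.0688), whose means of 2.02 and 2.91 there lay below 4. The COL5A2 call was lost without MDA-MB-453 0 min replicate 2, MDA-MB-453 24 h replicate 1 or MCF 0 min replicate 3. That of LETM2 was lost without MDA-MB-453 0 min replicate 2 or 3, MDA-MB-453 24 h replicate 1 or 3 or MCF 24 h replicate 1. That of GABBR2 held only without MDA-MB-453 0 min replicate 2, MCF 0 min replicate 1 or 2 or MCF 24 h replicate 3.

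**Figure D5:**
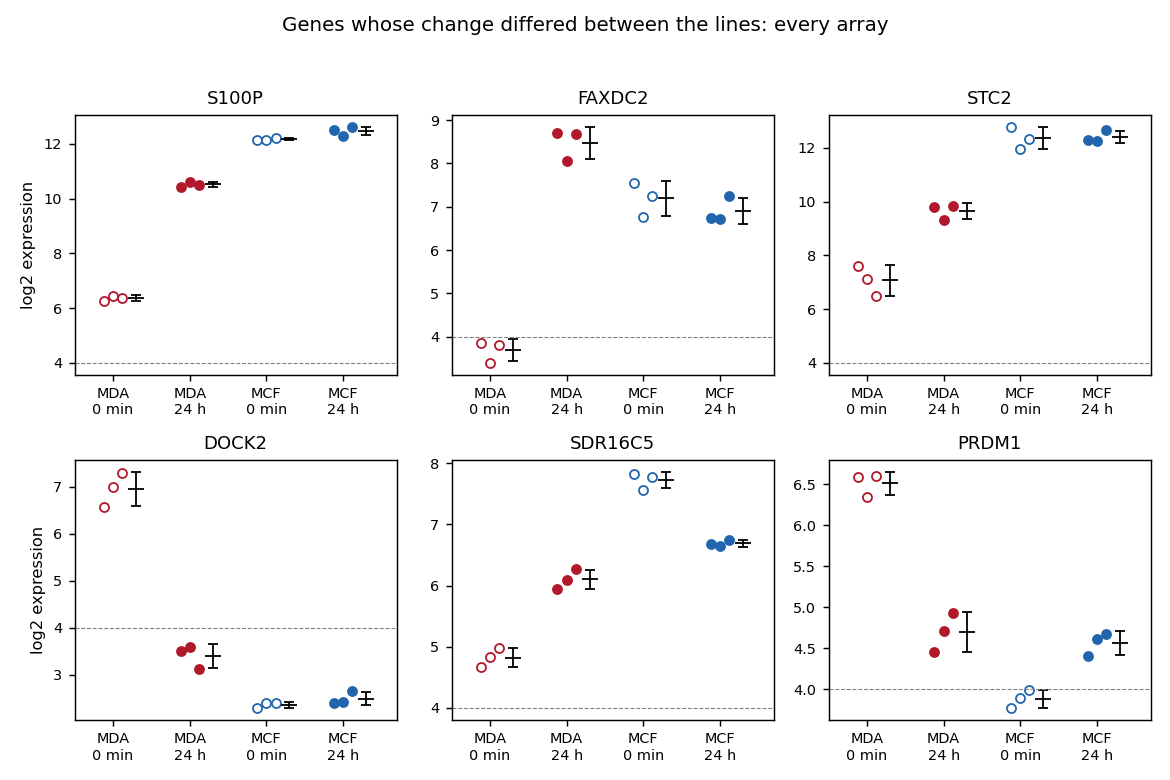
Log2 expression on every array (open points 0 min, filled points 24 h, MDA-MB-453 red, MCF blue) for 6 genes whose change differed between the lines, with the mean and SD (n = 3) in black and a dashed line at 4. In MDA-MB-453 the 24 h arrays of S100P, FAXDC2 and STC2 lie above the 0 min arrays and those of DOCK2 below, DOCK2 lies under the dashed line in MCF, and for SDR16C5 and PRDM1 the order of the times is opposite in the lines.

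The ErbB receptors above the level for testing had no called difference. ERBB4 changed by 0.70 ± 0.19 in MDA-MB-453 and 0.05 ± 0.15 in MCF. Its MDA-MB-453 arrays did not overlap, but that change was not called (limma adjusted p = 0.0729). The 95% interval of its difference, 0.10 to 1.19 before adjustment, does not hold 0 (limma adjusted p = 0.418). ERBB2 changed by 0.01 ± 0.22 in MDA-MB-453 and 0.36 ± 0.38 in MCF (95% interval of the difference -1.38 to 0.68), and ERBB3, the kinase-impaired partner, by 0.16 ± 0.10 and 0.21 ± 0.15 (interval -0.43 to 0.32). TGFA, a ligand of EGFR, rose in MDA-MB-453 from a level near 4 (0.46 ± 0.10, limma adjusted p = 0.0377), with -0.50 ± 0.42 in MCF and no called difference; with the mean of its probe sets in place of the brightest its change in MDA-MB-453 was -0.04 and was not called. Of the 9 tested genes of the family list, BTC alone had a called difference.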

How the data were processed

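RNA of each sample was read on an Affymetrix array, and the authors deposited log2 values of 54613 probe sets, made with GCRMA 2.20.0 in R 2.11.1 per the submitters' processing notes. The notes do not say whether Part 1 and Part 2 were normalised together. The deposited log2 values were used unchanged. Of the probe sets, 41091 carried 1 gene symbol in the platform annotation, 1801 several and 11721 none. Each gene was read from its probe set with the highest mean over the 12 arrays, and a gene was tested where that value was above 4 on at least 3 arrays.

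Changes within a line were fitted with limma 3.58.1 (R 4.3.3) to that line's 6 arrays, because the spread differed between the lines. The difference and the mean of the changes came from one fit with 4 group means and one spread per gene. Its median degrees of freedom were 10.4, against 6.13 in MCF alone. Where MCF makes up most of the spread that number is too generous, so p-values can be too small and intervals too narrow. With array weights that let the spread differ between the lines, 56 differences were called in place of 118. A call is a Benjamini-Hochberg adjusted p under 0.05 over all genes tested. A gene is called not measured in a line where both of its group means are below 4. Where only the lower mean is below 4, the size of the change is inexact too. Genes were named by a rule: the 10 largest shared rises and falls by the smaller change, the 10 largest each way by difference for a line (highest group mean at least 6), the 5 largest opposite differences each way, up to 4 members of each described list by the difference and up to 2 by the mean, and a set of receptor and pathway genes; exceptions are marked. A further probe set of a gene is given where it disagreed. The members and the 32 gene lists were chosen with earlier results of these data known. The fits were tested on simulated data. Promoters were searched, and figures drawn, with Python 3.11.15. Alternatives in the fit, the filter, the probe set, the scaling, the replicate block and single omitted arrays were tried.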

Additional observations from a re-analysis of the deposited data

Results flagged for a closer look

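Each result here was singled out because the change in MDA-MB-453 and the change in MCF differed by the limma test of the difference itself, at an adjusted p under 0.05. The count of such genes was 118. Values are the change in MDA-MB-453 minus the change in MCF, on the log2 scale. Of the genes named by the rule or on the ERK output list and described above, the positive differences were those of FAXDC2 (5.08), S100P (3.85), PAQR5 (3.36), STC2 (2.54), BTC (2.50), ETV5 (2.43), SDR16C5 (2.31), LETM2 (2.24), PLA2G2A (2.22), CREB3L1 (2.21), COL5A2 (2.16), GABBR2 (2.106), SPRR3 (2.03), ODAPH (1.98), RTKN2 (1.69), LIF (1.56), SPRY4 (1.55), SPRED1 (1.39), DUSP6 (1.38), DDB2 (1.30), PIP (1.13) and NDRG1 (0.86). The negative ones were those of DOCK2 (-3.69), PRDM1 (-2.49), BBOX1 (-2.26), TDO2 (-1.31), RAB31 (-1.26) and NUDT7 (-1.13).

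Some genes that belonged to MDA-MB-453 by the rule have not been described. DQX1, a helicase-like protein, had a difference of 2.84, and BPIFA4P, a pseudogene of the BPI fold family, one of 2.44. The axon guidance gene SEMA6D had a difference of -1.41, EPB41L1, a membrane skeleton protein, -1.26, and TSPAN6, a tetraspanin, -1.23. AGMAT, an agmatinase-like enzyme, had a difference of -1.15 and the noncoding gene LINC01208 one of -1.60.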

How the results depend on the processing

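With all 12 arrays, 1109 genes were called in MDA-MB-453, 1 in MCF, 118 for the difference, 449 for the mean, 0 in both lines each, 230 together, 84 as belonging to MDA-MB-453, 1 as belonging to MCF and 29 as opposite; counts below are in that order where several are given. Leaving out 1 array gave 295 to 1109, 0 to 1, 54 to 128, 231 to 568, 0, 139 to 365, 36 to 90, 0 to 1 and 13 to 45; the lowest counts for MDA-MB-453, the difference, the mean, the shared, the MDA-MB-453 and the opposite genes were all without MDA-MB-453 24 h replicate 1. The MDA-MB-453 count was also 494, 407 and 432 without 0 min replicates 1, 2 and 3. One fit to the 12 arrays, in which both lines share an estimate of the spread, called 409 genes in MDA-MB-453, 135 in MCF, 19 in both lines each and 29 as belonging to MCF. One fit to all 25 arrays called 389 in MCF, 302 differences, 1000 means, 69 in both lines each, 171 and 103 as belonging to MDA-MB-453 and to MCF, and 58 opposite. Array weights, which let the spread differ between the lines, gave 56 differences, 38 belonging to MDA-MB-453 and 12 opposite. A level above 4 in each line, which tests fewer genes, gave 38, 30 and 11. The trended, robust fit gave 64, 46 and 18, with 0 in MCF and 0 belonging to it, as also with the mean of probe sets and with every probe set. Quantile normalisation gave 3 in MCF, 1 in both each, 2 belonging to MCF and 19 opposite, and splits the differences 65 positive and 22 negative against 100 and 18. Centred arrays gave 2 in MCF, 1 in both each and 16 opposite. Requiring a 2-fold change left 304 in MDA-MB-453, 62 means and 35 shared. A covariate for the axis along which arrays of a group spread, chosen after seeing the data, gave 2494, 179, 597, 2279, 54, 368, 365, 87 and 72. The cause of these moves was not tested where the construction does not give it.

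Replicate numbers did not pair the arrays: deviations of same-numbered arrays correlated at 0.15, -0.46 and -0.66 in MDA-MB-453 and at -0.50, 0.80 and 0.04 in MCF. With the replicate number as a block, 46 genes were called in MDA-MB-453, 0 in MCF, 11 for the difference, 159 for the mean, 0 in both each, 97 together, 8 and 0 as belonging to a line and 3 as opposite, and 4 amino acid stress and 2 FOXO-linked genes rose and 0 ribosome biogenesis genes fell in MDA-MB-453. With the mean of probe sets, 3 named changes in MDA-MB-453 reversed: TGFA to -0.0398 (limma adjusted p = 0.887), KLF2 to -0.67 (limma adjusted p = 0.0236) and SCD to -0.46 (limma adjusted p = 0.0433); the cause was not tested. Signal near the bottom of the scale limits the size of changes for the 56 called differences not measured in a line.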

Other observations

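BT20, another breast cancer line of the series, was treated in the same way, and its 24 h arrays were compared with its 0 min arrays in a limma fit of their own. Of the 152 genes that rose in both MDA-MB-453 and MCF, 100 also rose in BT20 (65.8%) and 5 fell, where 19% of all genes tested rose. Of the 78 that fell in both lines, 50 fell in BT20 (64.1%) and 1 rose, where 13.5% of all fell. Without BT20 0 min replicate 4 these counts were 111 (73%, against 30.4% of all genes) and 59 (75.6%, against 23.9%). Of the 69 genes whose rise belonged to MDA-MB-453, 24 rose in BT20 (34.8%) and 5 fell, and of the 15 whose fall belonged to it, 3 fell and 4 rose.

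Cholesterol synthesis genes lay on different sides of 0 in the lines: 16 of 17 tested had a change above 0 in MCF (median 0.19) and 13 of 17 below 0 in MDA-MB-453 (median -0.08), and limma called 0 of them in either line or for the difference. Of 10 NF-kB targets tested, the MCF arrays did not overlap downward for 5, against 6.15% of all genes, with medians of -0.37 in MCF and -0.02 in MDA-MB-453. CXCL8, the chemokine interleukin 8, read 5.66, 4.82 and 5.57 at 0 min and 4.03, 3.85 and 4.25 at 24 h in MCF and lay below 4 in MDA-MB-453 (difference 1.58 ± 0.37, limma adjusted p = 0.0984). FOS, an immediate early gene, read 4.29, 4.93 and 4.44, then 5.93, 8.46 and 6.17, in MCF, a change of 2.30 ± 0.68 that was not called. Of 10 heat shock genes, 9 had a change below 0 in MDA-MB-453, against 5431 of all 11879 genes, and 1 fell there by the limma call, against 2.97% of all.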
